A study of Mus musculus with 37 samples.

Results

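The Cyp4a genes of the mouse encode microsomal cytochrome P450 enzymes that hydroxylate the end carbon of fatty acids. The 6 genes described here, Cyp4a10, Cyp4a14, Cyp4a31, Cyp4a32, Cyp4a12a and Cyp4a12b, were taken by symbol from the 55536 genes of the liver count table, and all 6 were among the 16710 genes that passed the filter on low counts. They were described over 4 liver genotypes of mice aged 10 months: WT, TMEM106B-/- (which lacks a membrane protein of lysosomes), the TDP-43Q331K knock-in (an ALS-linked change in TDP-43, which binds RNA), and TMEM106B-/-TDP-43Q331K, called the combined genotype below. Each genotype had 4 liver libraries. The labels give neither how the TMEM106B allele was made, nor the zygosity of the knock-in, nor the sex of the mice. The series was designed around the effects of TMEM106B deficiency and the Q331K change on gene expression in brain and liver.

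The end carbon that a Cyp4a enzyme hydroxylates is called the omega carbon. The product is oxidised further to a dicarboxylic acid and shortened in peroxisomes, and the same chemistry turns arachidonic acid into 20-HETE. In mouse liver Cyp4a10 and Cyp4a14 are classic targets of PPAR-alpha, the nuclear receptor for fatty acids and fibrate drugs, and they rise with fasting and fat load. Cyp4a12a is the main 20-HETE synthase of the mouse and is known as male-predominant and androgen-responsive in kidney. Cyp4a12b is its near-identical neighbour, while Cyp4a31 and Cyp4a32 are close relatives of Cyp4a10.

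All 6 genes lie in 1 cluster on chromosome 4 (GRCm38), all on the plus strand except Cyp4a14. Cyp4a12a lies at chr4:115299046-115332815, Cyp4a12b at chr4:115411624-115439034, Cyp4a14 at chr4:115486200-115496142, Cyp4a10 at chr4:115518264-115533649, Cyp4a31 at chr4:115563649-115579015 and Cyp4a32 at chr4:115600969-115621602. Across the coding sequence Cyp4a12a and Cyp4a12b were 98.5% identical, with 23 mismatches in 1524 bases and an identical run of 342 bases. The 90 coding bases where this pair differs most lie in exon 6 of each gene. They are shown because reads of the 2 copies can be told apart at such places. How reads that fit both copies were counted is not given. Capitals mark bases that differ from Cyp4a12a, and each sequence is GRCm38 in the sense of the gene.
Cyp4a12a: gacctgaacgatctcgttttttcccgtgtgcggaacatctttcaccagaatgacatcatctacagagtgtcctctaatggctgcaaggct
Cyp4a12b: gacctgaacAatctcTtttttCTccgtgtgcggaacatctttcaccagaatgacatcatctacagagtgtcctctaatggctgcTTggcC
Cyp4a10: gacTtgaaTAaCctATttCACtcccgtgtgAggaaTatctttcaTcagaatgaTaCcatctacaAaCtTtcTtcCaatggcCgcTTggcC
Cyp4a14: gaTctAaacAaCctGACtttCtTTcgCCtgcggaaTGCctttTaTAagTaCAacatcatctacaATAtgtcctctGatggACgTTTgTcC

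The Cyp4a12a stretch is chr4:115326659-115326748 and the Cyp4a12b stretch chr4:115432912-115433001. Cyp4a12b differed from Cyp4a12a at 7 of the 90 bases, Cyp4a10 at 23 and Cyp4a14 at 32. Over the whole coding sequence Cyp4a10 was 80.2% identical to Cyp4a12a, and Cyp4a14 was 75.6% identical to Cyp4a10, so Cyp4a10 was closer in sequence to Cyp4a12a than to Cyp4a14. Cyp4a10, Cyp4a31 and Cyp4a32 form a second close group, with 96.6% identity between Cyp4a10 and Cyp4a31 and 97.2% between Cyp4a10 and Cyp4a32. The stretch of exon 1 where Cyp4a10 and Cyp4a31 differ most is shown with capitals for bases that differ from Cyp4a10.
Cyp4a10: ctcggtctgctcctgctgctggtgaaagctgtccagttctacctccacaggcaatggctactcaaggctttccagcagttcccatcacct
Cyp4a31: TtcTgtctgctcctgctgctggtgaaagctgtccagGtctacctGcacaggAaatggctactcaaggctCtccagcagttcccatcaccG
Cyp4a32: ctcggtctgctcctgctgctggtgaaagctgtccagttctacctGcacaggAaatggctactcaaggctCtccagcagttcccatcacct

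Cyp4a31 differed at 7 of these 90 bases and Cyp4a32 at 3. Of all 100-base windows of the Cyp4a12a transcript, 35.8% also occurred unchanged in another gene, always Cyp4a12b, and 36.2% of the Cyp4a12b windows occurred in Cyp4a12a. The share was 12.7% for Cyp4a10, 8.22% for Cyp4a31, 20.1% for Cyp4a32 and 0% for Cyp4a14. With 50-base windows the shares were larger: 48.9% for Cyp4a12a, 49.4% for Cyp4a12b, 30.5% for Cyp4a10, 21.8% for Cyp4a31, 46.8% for Cyp4a32 and 0.245% for Cyp4a14. For reads that fit 2 copies, dropping or sharing out is not given in the sources used here. Assignment of reads between Cyp4a12a and Cyp4a12b, and among Cyp4a10, Cyp4a31 and Cyp4a32, is therefore uncertain. That of Cyp4a14 is not affected at the window length of 100 bases.

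The 16 liver libraries held 50492607 to 74147763 counted reads. Nothing in the labels says that the libraries of a genotype came from separate mice, so the p-values measure the spread between these libraries. Tmem106b RNA was not lower in the libraries labelled TMEM106B-/- (115 ± 9.32 counts per 1000000 counted reads (CPM), SD, n = 4) or in the combined genotype (135 ± 9.15) than in WT (96.5 ± 16.3), so genotypes rest on the labels. Hepatocyte markers dominated every library, with Alb between 65281 and 97170 CPM. The 5 kidney tubule markers, from the other main site of Cyp4a expression, summed to at most 0.0936 CPM, with Kap at 0 throughout. Summed acute phase transcripts stood at 15882 CPM in WT replicate 2, 14996 in TMEM106B-/- replicate 4 and 13897 in combined replicate 1, against 3775 to 9018 in the other 13 livers.

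Per kilobase of exon, Cyp4a12a was the most abundant member in WT liver, at 62.5 ± 19.6 CPM per kb (SD, n = 4). It was followed by Cyp4a10 at 32.0 ± 14.3, Cyp4a12b at 16.8 ± 3.38, Cyp4a14 at 12.8 ± 8.32, Cyp4a32 at 11.5 ± 3.07 and Cyp4a31 at 1.02 ± 0.503. The ranges of Cyp4a12b, Cyp4a14 and Cyp4a32 overlapped. In the combined genotype the order was different: Cyp4a10 stood at 137 ± 38.9 and Cyp4a14 at 133 ± 52.1 CPM per kb, above Cyp4a12a at 69.7 ± 27.7, with Cyp4a32 at 24.0 ± 7.31, Cyp4a12b at 3.49 ± 1.79 and Cyp4a31 at 2.05 ± 0.465. Cyp4a10 and Cyp4a14 overlapped each other in the combined genotype.

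**Figure D1:**
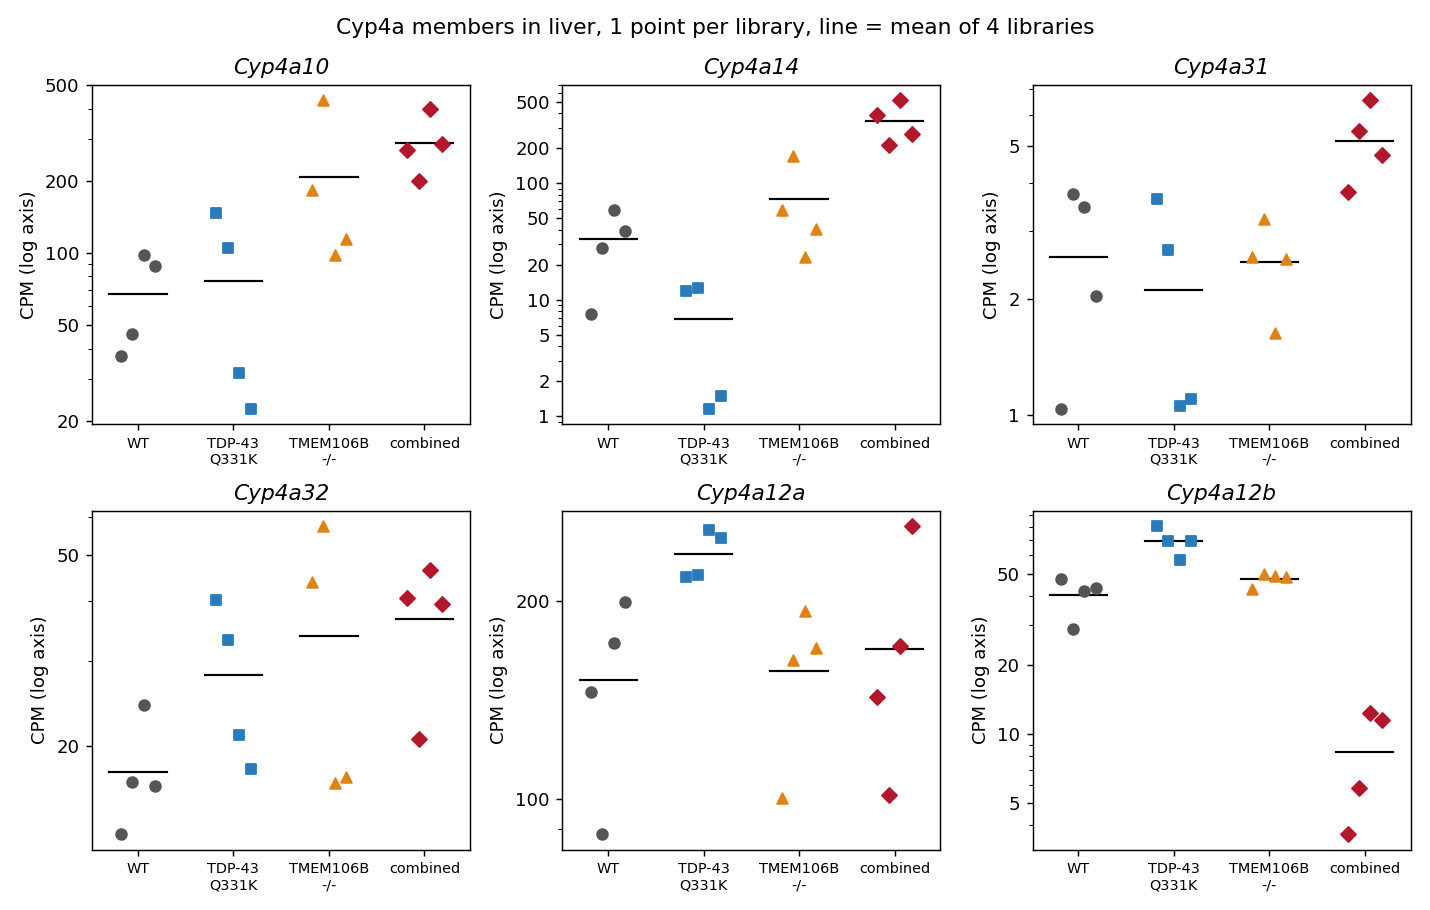
Levels of the 6 Cyp4a genes in each liver library, in CPM on a log axis that differs between panels. Each point is 1 library, the line is the mean of 4, and the points of Cyp4a14 in the combined genotype lie above, and those of Cyp4a12b below, all points of the other 3 genotypes.

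Cyp4a14 was the member with the widest range over the genotypes. WT replicates 1 to 4 stood at 7.52, 27.8, 59.4 and 38.7 CPM, and TDP-43Q331K replicates at 11.9, 12.7, 1.17 and 1.51 CPM. The TMEM106B-/- replicates stood at 59.4, 173, 23.3 and 40.5 CPM, and the combined replicates at 387, 212, 516 and 265 CPM. All 4 combined livers were above every other liver, whereas TMEM106B-/- overlapped WT, and WT overlapped TDP-43Q331K through 1 low WT liver. The lowest of the 16 libraries still held 64 reads of this gene. In bulk RNA, fewer cells with a transcript and less of it per cell cannot be told apart.

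Cyp4a14 was 10.3-fold higher in the combined genotype than in WT, with a log2 fold change of 3.37 ± 0.89 (SE) and an adjusted p of 0.0378 in edgeR's quasi-likelihood test with Benjamini-Hochberg adjustment over all tested genes. Against TDP-43Q331K it was 50.6-fold higher (log2 5.66 ± 0.99, edgeR adjusted p = 0.00794). Against TMEM106B-/- the log2 difference of 2.22 ± 0.85 did not pass (edgeR adjusted p = 0.262), although those groups did not overlap. The call against WT was lost when any of the 8 WT or combined libraries was left out (edgeR adjusted p from 0.0580 to 0.0974, log2 from 3.04 to 3.81), when TMEM106B-/- replicate 1 was left out (0.0509), and without the 3 livers with high acute phase transcripts (0.134). The call against TDP-43Q331K held in every alternative run. Its interaction term was 4.51 ± 1.21 on the log2 scale (edgeR adjusted p = 0.106, DESeq2 adjusted p = 0.00382).

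Cyp4a10 stood at 37.3, 46.1, 98.2 and 88.3 CPM in WT and at 147, 105, 31.6 and 22.5 CPM in TDP-43Q331K. It stood at 184, 433, 98.2 and 115 CPM in TMEM106B-/- and at 270, 201, 399 and 284 CPM in the combined genotype. The highest value of all 16 livers belonged to TMEM106B-/- replicate 2, so the combined genotype overlapped TMEM106B-/- but neither WT nor TDP-43Q331K. The log2 difference between the combined genotype and WT was 2.10 ± 0.62 and missed the threshold (edgeR adjusted p = 0.0598), and that against TDP-43Q331K was 1.91 ± 0.62 (edgeR adjusted p = 0.101). DESeq2 called both, with adjusted p of 0.00991 and 0.028, and edgeR called the first without TDP-43Q331K replicate 4 (0.0443) or TMEM106B-/- replicate 2 (0.043). Between TMEM106B-/- and WT the log2 difference was 1.62 ± 0.61 (edgeR adjusted p = 0.235), with all 4 TMEM106B-/- livers above the WT mean.

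The 2 induced genes did not keep a fixed ratio. Per kilobase, Cyp4a14 over Cyp4a10 was 0.375 ± 0.154 in WT (SD, n = 4), 0.266 ± 0.0555 in TMEM106B-/-, 0.0620 ± 0.0282 in TDP-43Q331K and 0.956 ± 0.183 in the combined genotype. The TDP-43Q331K ratios, 0.0299 to 0.0979, lay below those of the other 12 livers, and the combined ratios, 0.755 to 1.16, lay above them. Across the 16 livers the log2 CPM of Cyp4a10 and Cyp4a14 had a Pearson r of 0.895, and 0.940 after removing genotype means, which describes libraries that also share depth and tissue handling.

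Cyp4a31 and Cyp4a32 were the lesser members of the Cyp4a10 group. Cyp4a31 stood at 1.04, 3.74, 3.45 and 2.03 CPM in WT and at 3.80, 5.47, 6.55 and 4.71 CPM in the combined genotype, with 1.06 to 3.63 CPM in the other 8 livers. All 4 combined livers were above the other 12, with a 95% interval of the log2 difference from WT of 0.11 to 1.89 (edgeR adjusted p = 0.151) and at a log2 difference from TDP-43Q331K of 1.28 ± 0.41 (0.0908, and 0.0442 without TDP-43Q331K replicate 1). Cyp4a32 was 17.6 ± 4.72 CPM in WT, 33.8 ± 20.3 in TMEM106B-/-, 28.1 ± 10.5 in TDP-43Q331K and 36.8 ± 11.2 in the combined genotype (SD, n = 4). All 4 groups of Cyp4a32 overlapped, and its log2 difference between the combined genotype and WT was 1.06 ± 0.41 (edgeR adjusted p = 0.132, DESeq2 adjusted p = 0.0365). With all libraries, neither gene passed the edgeR test in any comparison.

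Cyp4a12b had the opposite pattern. WT replicates stood at 47.2, 28.6, 42.0 and 43.1 CPM, TDP-43Q331K replicates at 80.5, 69.6, 57.3 and 69.0, and TMEM106B-/- replicates at 42.8, 49.9, 48.9 and 48.3. The combined replicates stood at 3.66, 5.81, 12.4 and 11.5 CPM. Every combined liver was below every other liver, every TDP-43Q331K liver was above every other liver, and WT and TMEM106B-/- overlapped.

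Cyp4a12b was 4.82-fold lower in the combined genotype than in WT (log2 -2.27 ± 0.29, edgeR adjusted p = 0.00033). It was 8.28-fold lower than in TDP-43Q331K (log2 -3.05 ± 0.30, edgeR adjusted p = 3.44e-05) and 5.69-fold lower than in TMEM106B-/- (log2 -2.51 ± 0.30, edgeR adjusted p = 0.000698). In TDP-43Q331K the log2 difference from WT was 0.78 ± 0.28 (edgeR adjusted p = 0.215), and in TMEM106B-/- it was 0.24 ± 0.28 (0.729). The interaction term, which asks whether the change in the combined genotype differs from the sum of the 2 single changes, was -3.29 ± 0.40 on the log2 scale (edgeR adjusted p = 0.00193). Leaving out any single library kept each of these 3 calls and the interaction, with log2 values against WT from -2.52 to -2.02.

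Cyp4a12a did not follow its copy. WT replicates stood at 146, 88.4, 172 and 199 CPM, TDP-43Q331K replicates at 217, 219, 256 and 249, TMEM106B-/- replicates at 100, 163, 193 and 170, and combined replicates at 143, 101, 171 and 260. The TDP-43Q331K livers lay close together and above all WT and TMEM106B-/- livers, while the combined livers spread over the whole range. The log2 difference between the combined genotype and WT was 0.16 ± 0.27 (95% interval -0.44 to 0.75, edgeR adjusted p = 0.793), and that between TDP-43Q331K and WT was 0.64 ± 0.27 (edgeR adjusted p = 0.285). No comparison called it in any fit run.

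**Figure D2:**
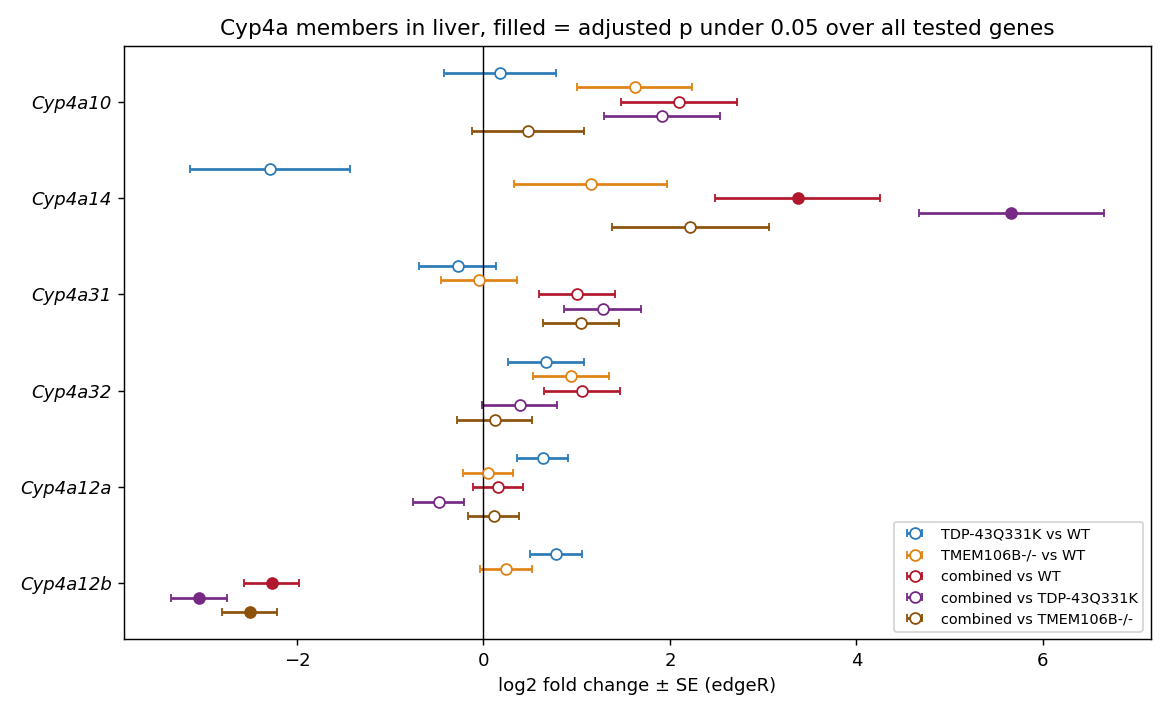
Log2 fold changes of the 6 Cyp4a genes with their standard errors in the 5 pairwise comparisons of liver genotypes, from edgeR with 4 libraries a group. Filled points passed an adjusted p of 0.05 over all tested genes, which Cyp4a14 did in 2 comparisons and Cyp4a12b in 3.

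Of the 6 members, 1 rose and 1 fell in the combined genotype against WT, beside 7.04% of all tested genes called in that comparison (4.19% higher and 2.85% lower). Against TDP-43Q331K 1 rose and 1 fell, with a background of 3.94% (2.17% higher and 1.77% lower), and against TMEM106B-/- 1 fell, with a background of 1.04% (0.551% lower). The interaction called 1, in the lower direction, beside 0.688% of all genes (0.347% lower). With 6 members, 1 or 2 calls are a small count to set against these shares. In TMEM106B-/- against WT and in TDP-43Q331K against WT edgeR called 0 members, beside backgrounds of 1.05% and 0.263%. Those comparisons held 2 and 3 members at an unadjusted p under 0.05, and DESeq2 and limma-voom also called 0 in both. The groups did not overlap for 4 members in the combined genotype against WT, where that held for 14.6% of all genes, and for 4 against TDP-43Q331K (15% of all genes), 3 against TMEM106B-/- (8.99%), 2 between TDP-43Q331K and WT (8.64%) and 0 between TMEM106B-/- and WT (7.19%).

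The share of Cyp4a12b among the counts of the Cyp4a12 pair set the combined genotype apart. It was 24.5%, 24.4%, 19.6% and 17.8% in WT, 27.0%, 24.1%, 18.3% and 21.7% in TDP-43Q331K, and 29.9%, 23.5%, 20.2% and 22.1% in TMEM106B-/-. In the combined genotype it was 2.50% (95% Wilson interval 2.20 to 2.83), 5.42% (4.92 to 5.97), 6.76% (6.32 to 7.23) and 4.25% (3.94 to 4.58). These intervals cover counting error only, and libraries within a genotype differed by more than them. The ranges of the 3 other genotypes overlapped, between 17.8% and 29.9% in all, so the higher Cyp4a12b level in TDP-43Q331K came with a higher Cyp4a12a level, while the lower level in the combined genotype did not come with a lower Cyp4a12a level.

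When the counts of the 2 copies were added before the fit, the sum in the combined genotype differed from WT by -0.11 ± 0.25 on the log2 scale (edgeR adjusted p = 0.840), from TDP-43Q331K by -0.78 ± 0.25 (0.0890) and from TMEM106B-/- by -0.20 ± 0.25 (0.783), and its interaction was -0.87 ± 0.35 (0.236). So the calls of Cyp4a12b had no counterpart in the sum, most of whose counts are Cyp4a12a. In WT Cyp4a12b made up 21.6 ± 3.42% of the pair's counts (SD, n = 4). A fall of Cyp4a12b alone could therefore move the sum little, so the sum cannot decide whether Cyp4a12b fell. Whether read assignment has a part in the Cyp4a12b calls was not tested.

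**Figure D3:**
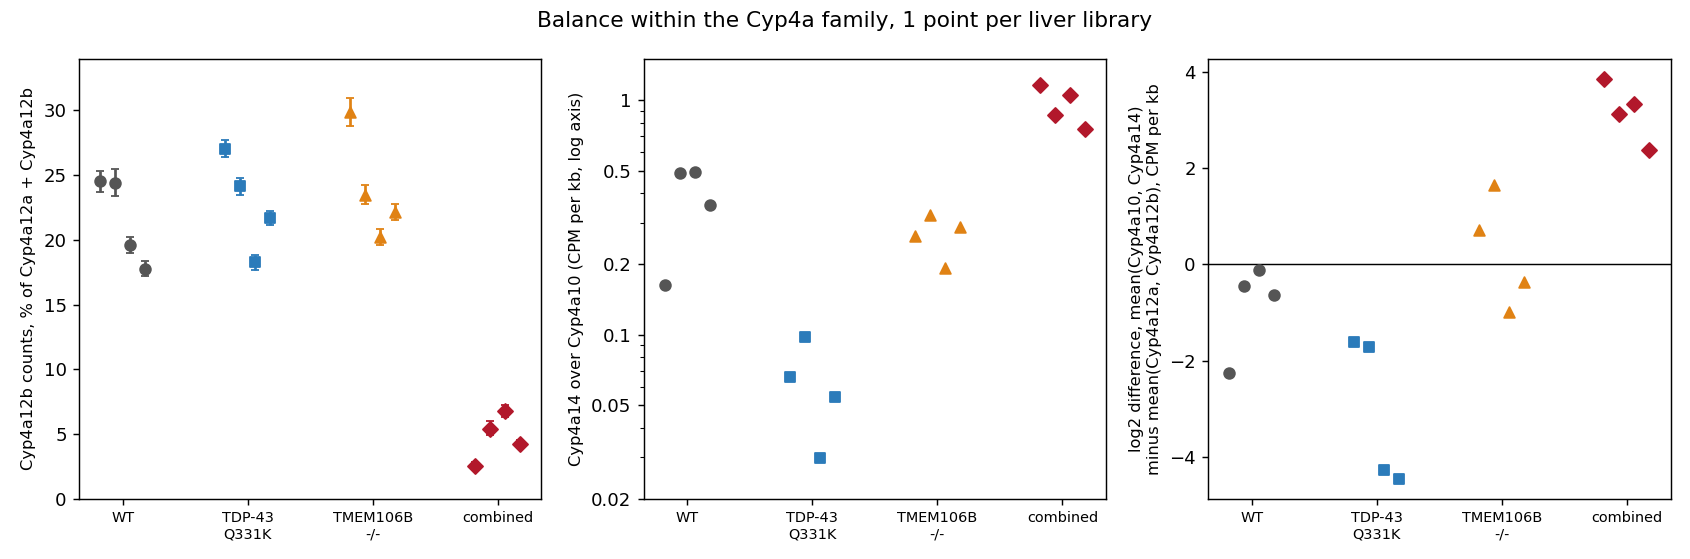
Measures of balance within the Cyp4a family, 1 point per liver library: the percent of Cyp4a12b in the counts of the Cyp4a12 pair (bars are 95% Wilson intervals), the ratio of Cyp4a14 to Cyp4a10 per kilobase (log axis), and the log2 difference between the induced pair and the Cyp4a12 pair. The 4 combined livers are lowest in the first panel and highest in the other 2.

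Setting the induced pair against the Cyp4a12 pair gave 1 number per liver: the mean log2 level per kilobase of Cyp4a10 and Cyp4a14 minus that of Cyp4a12a and Cyp4a12b. It was -2.27, -0.45, -0.12 and -0.63 in WT and -1.62, -1.72, -4.28 and -4.45 in TDP-43Q331K. It was 0.71, 1.65, -0.99 and -0.37 in TMEM106B-/- and 3.86, 3.13, 3.34 and 2.37 in the combined genotype. Only the combined livers were all above 0, and only the TMEM106B-/- livers fell on both sides of 0. The 2 TDP-43Q331K livers with the lowest values, replicates 3 and 4, were also those with the lowest Cyp4a10, Cyp4a14, Cyp4a31 and Cyp4a32 of that genotype.

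As a share of the summed level of all 6 members per kilobase, Cyp4a10 and Cyp4a14 made up 31.7 ± 8.96% in WT (SD, n = 4), 49.3 ± 15.6% in TMEM106B-/-, 19.4 ± 12.9% in TDP-43Q331K and 72.9 ± 6.80% in the combined genotype. The Cyp4a12 pair made up 58.7 ± 10.3%, 41.0 ± 17.99%, 70.5 ± 14.98% and 20.1 ± 6.62% in the same order. The summed level itself was 137 ± 41.4 CPM per kb in WT, 234 ± 110 in TMEM106B-/-, 184 ± 33.2 in TDP-43Q331K and 369 ± 106 in the combined genotype. The summed Cyp4a12 pair stayed at 73.2 ± 29.0 CPM per kb in the combined genotype beside 79.3 ± 22.3 in WT, because Cyp4a12a carries most of it.

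**Figure D4:**
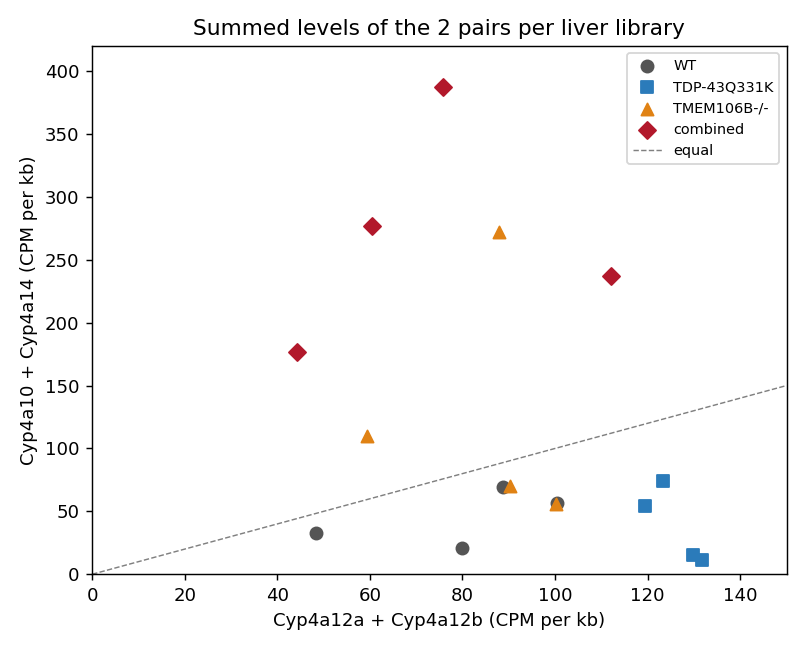
Summed level of Cyp4a10 and Cyp4a14 (vertical axis) against that of Cyp4a12a and Cyp4a12b (horizontal axis), both in CPM per kb, 1 point per liver library, with the dashed line marking equal levels. The 4 combined livers and 2 of the TMEM106B-/- livers lie above the line, and the 4 TDP-43Q331K livers lie farthest to the right, at 119 to 132 CPM per kb of the Cyp4a12 pair.

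The receptor itself and its partners were read from a list of 10 genes. Ppara RNA was 51.3 ± 5.91 CPM in the combined genotype and 45.7 ± 13.7 in WT (edgeR adjusted p = 0.640), a gene named after its value was seen. Of the 10, 2 rose and 1 fell in the combined genotype against WT, beside 4.19% of all genes called higher and 2.85% called lower. Ppargc1a, a coactivator of PPAR-alpha, rose (10.7 ± 3.73 against 4.89 ± 0.675 CPM, log2 1.13 ± 0.26, edgeR adjusted p = 0.0148). Pparg, the fat storage receptor of the same family, rose as well (log2 0.75 ± 0.21, edgeR adjusted p = 0.0368). The list's median log2 difference was -0.20, beside -0.03 over all tested genes, and leaving out combined replicate 2 left 1 call, Ppargc1a, while Pparg was also lost without WT replicate 2 or 3 or combined replicate 1 or 4.

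Of 34 other PPAR-alpha targets, 10 rose and 0 fell in the combined genotype against WT, with a median log2 difference of 0.45 beside -0.03 over all genes and 4.19% of all genes called higher. The called genes with the smallest p were Ehhadh, a peroxisomal enzyme of fatty acid breakdown (238 ± 64.4 against 98.2 ± 14.8 CPM, log2 1.28 ± 0.18, edgeR adjusted p = 0.000413), and Vnn1, a pantetheinase (73.6 ± 15.5 against 27.7 ± 7.29 CPM, 1.41 ± 0.27, 0.00523). Pdk4, a kinase that restrains glucose oxidation, had a log2 difference of 1.53 ± 0.31 (0.00644) and Crat, carnitine acetyltransferase, of 0.87 ± 0.20 (0.0135). The log2 differences of these 4 genes were smaller than those of Cyp4a14 (3.37) and Cyp4a10 (2.10), a comparison of estimates that was not tested. The 4 were picked by p and not by size. Fgf21, also called and named after its value was seen, stood at 16.9 ± 13.4 against 4.25 ± 1.67 CPM. Its log2 difference was 1.28 to 2.29 over 24 alternatives, a range that includes the value of Cyp4a10, and 9 of them kept the call. Against TDP-43Q331K 8 of the 34 rose and 0 fell, beside 2.17% of all genes called higher. Against TMEM106B-/- 3 rose and 0 fell, namely Crat, Pdk4 and Vnn1, beside 0.485% of all genes called higher. Against TDP-43Q331K 3 of the 34 passed without its replicate 3 or 4, 4 without its replicate 2 or without combined replicate 2, 3 or 4, and 5 without TMEM106B-/- replicate 3. Against TMEM106B-/- 1 passed, Vnn1, without TMEM106B-/- replicate 2 or 4 or combined replicate 2 or 3, while DESeq2 called 8.

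In TMEM106B-/- against WT 1 of the 34 rose, Ehhadh (log2 0.89 ± 0.18, edgeR adjusted p = 0.0234), beside 1.05% of all genes called. That call was lost without WT replicate 2 or 3 or TMEM106B-/- replicate 1, 2 or 3. In TDP-43Q331K against WT edgeR called 0, beside 0.263% of all genes, with 5 at an unadjusted p under 0.05, and DESeq2 called 2. The comparisons of the combined genotype with WT, with TDP-43Q331K and with TMEM106B-/- share the combined libraries. Without WT replicate 2 or without combined replicate 3, 4 targets passed against WT, and without combined replicate 4, 6 did. Without the 3 livers with high acute phase transcripts 7 passed against WT, 11 against TDP-43Q331K and 1 against TMEM106B-/-, beside 5.35%, 4.44% and 0.891% of all genes called in the same fits.

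A Cyp4a enzyme takes electrons from cytochrome P450 reductase, encoded by Por, and can be helped by cytochrome b5. Of the 4 genes for these donors, Cyb5r3, which encodes cytochrome b5 reductase, rose in the combined genotype (1015 ± 110 against 609.7 ± 50.8 CPM, log2 0.73 ± 0.12, edgeR adjusted p = 0.00128). It also rose in TMEM106B-/- (log2 0.61 ± 0.12, 0.0196), a call lost without WT replicate 2 or 3 or TMEM106B-/- replicate 1, 2 or 3. In TDP-43Q331K it rose too (0.60 ± 0.12, 0.0468), a call lost in 18 of 24 alternatives. Of all genes, 4.19% were called higher in the combined genotype against WT. All calls made up 1.05% of genes in TMEM106B-/- and 0.263% in TDP-43Q331K. Por, Cyb5a and Cyb5b had log2 differences between the combined genotype and WT of -0.07 ± 0.38, -0.08 ± 0.14 and 0.48 ± 0.15, and none of the 3 passed with edgeR. Cyb5b passed with DESeq2, with limma-voom and without WT replicate 1 or TDP-43Q331K replicate 3 (adjusted p 0.016 to 0.177 over 24 alternatives).

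The genes for enzymes and transporters that carry an omega-hydroxylated fatty acid on to a shortened dicarboxylic acid were a list of 15. In the combined genotype against WT 3 of them rose and 0 fell, with a median log2 difference of 0.28. In that comparison 4.19% of all genes were called higher. Among the 3 were Ehhadh, as above, and Aldh9a1, an aldehyde dehydrogenase (log2 0.47 ± 0.11, edgeR adjusted p = 0.0185). This list and the target list share genes, Ehhadh among them. Ehhadh and Aldh9a1 rose in TMEM106B-/- against WT too, beside 1.05% of all genes called. Aldh9a1 had a log2 of 0.48 ± 0.11 there (edgeR adjusted p = 0.0499), a call kept in 6 of 24 alternatives. Without WT replicate 2 or combined replicate 3, Ehhadh alone of the 15 passed in the combined genotype.

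Of 14 other Cyp4 genes on the list 9 were tested. In the combined genotype against WT 2 fell and 0 rose, with a median log2 difference of -0.25, beside 2.85% of all genes called lower. Cyp4f14, which acts on leukotriene B4, stood at 192 ± 23.9 against 285 ± 17.5 CPM in WT (log2 -0.57 ± 0.12, edgeR adjusted p = 0.00792), and Cyp4f13 at 74.7 ± 5.07 against 102 ± 4.06 CPM (-0.44 ± 0.09, 0.00788). Against TDP-43Q331K 1 of the 9, Cyp4f39, rose from a low level (0.290 ± 0.165 against 0.0903 ± 0.0388 CPM, log2 1.67 ± 0.45, edgeR adjusted p = 0.0484), a call kept in 6 of 23 alternatives. Its interaction was called too (3.10 ± 0.65, edgeR adjusted p = 0.0338), and that call was kept in 9 of 23. Of all genes, 2.17% were called higher against TDP-43Q331K and 0.688% were called in the interaction. Of 11 P450 and hydrolase genes that act on arachidonic acid by other routes, 3 rose and 0 fell in the combined genotype against WT. The median log2 difference of the 11 was -0.05, beside -0.03 over all tested genes. In that comparison 4.19% of all genes were called higher. The 3 were Cyp2c39 (log2 2.78 ± 0.38, edgeR adjusted p = 0.000339, at 3.27 ± 0.608 CPM), Cyp2c38 (1.63 ± 0.29, 0.00358) and Cyp2j5 (0.46 ± 0.12, 0.0244). The call of Cyp2j5 was lost without WT replicate 2 or 3 or combined replicate 1 or 3. Cyp2c39 also rose in TMEM106B-/- against WT (1.63 ± 0.38, 0.0465), a call kept in 9 of 24 alternatives, beside 1.05% of all genes called.

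Genes next to the cluster on chromosome 4 were tested for 9 of the 10 on the list. In the combined genotype 1 rose, Pdzk1ip1, a small membrane protein gene (12.47 ± 5.79 against 4.39 ± 0.757 CPM, log2 1.51 ± 0.34, edgeR adjusted p = 0.0136), and it rose in TMEM106B-/- as well (1.57 ± 0.34, 0.0367), a call kept in 13 of 24 alternatives. The list's median log2 difference in the combined genotype was 0.09, and 4.19% of all genes were called higher against WT. In TMEM106B-/- against WT 1.05% of all genes were called. Mknk1, Mob3c, Atpaf1, Efcab14, Cyp4b1, Tal1, Stil and Cmpk1 did not pass, with log2 differences between -0.25 and 0.98.

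Sex-biased liver genes were read beside Cyp4a12a and Cyp4a12b because that pair is known as male-predominant. In the combined genotype against WT 13 of 16 male-biased genes fell and 0 rose (median log2 -1.80), beside 2.85% of all genes called lower. They were led by Hsd3b5 (8.10 ± 2.67 against 196 ± 36.7 CPM), Mup20, Gstp1 and Cyp7b1. Of 17 female-biased genes 12 were tested, and 7 rose and 0 fell (median 4.29), beside 4.19% of all genes called higher. They were led by Cyp2b9, Hao2, Cyp2b13 and Cyp2a4. The 17 genes summed to 26.1 ± 5.12 CPM in WT and 261 ± 37.0 in the combined genotype (SD, n = 4). In the combined genotype Cyp4a12b lay on the falling side with the male-biased list and Cyp4a12a did not. In TMEM106B-/- against WT the list medians went the same way, at -0.48 for male-biased and 1.55 for female-biased genes. There 1 male-biased gene was called lower and 0 female-biased genes were called, beside 1.05% of all genes. In TDP-43Q331K against WT the medians were -0.11 and -0.06, with 0 called in either list. Ddx3y, on the Y chromosome, stood at 46.0 CPM or more in all 16 livers and Xist at 0.389 CPM or less. Of the 5 Y-linked and X-inactivation markers 1 was called lower in the combined genotype against WT (list median log2 -0.31). Against TDP-43Q331K 1 of the 5 was called lower too (median -0.20), beside 1.77% of all genes called lower. Of 13 genes of growth hormone and androgen signalling 1 fell, Cish, a STAT5 target (8.99 ± 5.83 against 50.1 ± 21.5 CPM, log2 -2.48 ± 0.70, edgeR adjusted p = 0.0487), a call kept in 7 of 24 alternatives.

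Few markers of other cells passed in the combined genotype against WT, where 7.04% of all tested genes were called. Kupffer cell (7 genes), sinusoidal endothelium (6), bile duct (5) and lymphocyte (4) lists held 0 genes called by edgeR, with 0, 1, 1 and 1 at an unadjusted p under 0.05. Of 6 stellate cell and fibroblast markers 2 rose, Col1a1 (log2 1.60) and Col3a1 (1.22), with a summed list level of 157 to 189 CPM against 112 to 170 in WT. Of 5 hepatocyte markers 1 fell, Apoa1 (log2 -0.39). None of the 8 pericentral and 7 periportal hepatocyte markers passed, with list medians of -0.04 and -0.03. The part of collagen-producing cells in the Cyp4a values was not tested.

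The genes most like each member across the 16 livers, by Pearson r of log2 CPM, are given as a description, since the libraries share depth and genotype. For Cyp4a10 they were Rdh16 (r = 0.888), a retinol dehydrogenase, Limch1 (0.887) and Pigp (0.862). For Cyp4a14 they were Mgst3 (0.921), a microsomal glutathione transferase, Cyp2c38 (0.896) and Htatip2 (0.895). Mgst3 was 39.5 ± 7.12 CPM in the combined genotype and 12.4 ± 1.94 in TDP-43Q331K, the same extremes as Cyp4a14 on a narrower scale.

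For Cyp4a12a they were Zfp940 (0.934), Tefm (0.867) and Slc2a1 (0.854), and for Cyp4a12b they were Susd4 (0.932), Mrpl3 (0.921) and Gm3839 (0.920). Susd4, also on the male-biased list, was 34.2 ± 1.61 CPM in WT, 29.4 ± 4.23 in TMEM106B-/-, 49.4 ± 3.78 in TDP-43Q331K and 15.4 ± 5.54 in the combined genotype, the same highest and lowest genotypes as Cyp4a12b. Cyp4a12a and Cyp4a12b themselves had an r of 0.369 over the 16 livers and 0.569 after removing genotype means. Cyp4a14 and Cyp4a12b had an r of -0.741, which became 0.113 after removing genotype means.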

How the data were processed

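Liver and cortex RNA was sequenced with a strand-keeping kit, per the labels' protocols. The submitters' processing notes name Trim Galore, cutadapt, FastQC and the builds GRCm38 and mm10. Aligner, counter, strand setting and the handling of multi-mapped reads: not given in the sources used here. Raw read counts per Ensembl gene were deposited by the authors and named with GENCODE M21 (all 55536 matched). 1 cortex column of no labelled sample was not used.

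The 16 liver libraries entered 1 edgeR 4.0.16 model (R 4.3.3; TMM, filterByExpr with minimum count 10, robust quasi-likelihood, 12 residual degrees of freedom, biological coefficient of variation 0.235), with Benjamini-Hochberg adjustment over 16710 genes and a threshold of 0.05. CPM uses TMM-scaled library sizes. CPM per kb divides by merged exon length. Log2 CPM for correlations used a prior count of 2. Fold-change intervals are 95%, from the t distribution. The script was tested on simulated data. Sequences and coding alignments come from the GRCm38 reference and GENCODE M21 transcripts. Sequence windows shared with another gene were counted over the annotated transcripts.

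The members, lists and tests were chosen with earlier results of these data known. Named genes are the 6 members, all genes of lists of up to 6, the called genes with the 4 smallest p of longer lists in the combined genotype against WT plus up to 4 called in each single genotype, the cluster's neighbours, and the 3 genes most like Cyp4a10, Cyp4a14, Cyp4a12a and Cyp4a12b. Alternatives were DESeq2 1.42.0, limma 3.58.1 with voom weights, RLE size factors, no filter, a replicate block, fits on the compared groups, near-identical copies summed, and each library left out. Leaving out 3 livers with high acute phase transcripts was added after seeing the data. Some called genes of the lists are counted but not reported by name here.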

Additional observations from a re-analysis of the deposited data

Results flagged for a closer look

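The interaction of Cyp4a12b in liver, -3.29 on the log2 scale with an edgeR adjusted p of 0.00193, was singled out because the effect of the Q331K change differed with and without TMEM106B: Cyp4a12b was higher in TDP-43Q331K than in WT in 4 of 4 livers and lower in the combined genotype than in TMEM106B-/- in 4 of 4 livers. None of the 24 combinations of member and genotype held a library far enough from its 3 fellows to be called an outlier.

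A Cyp4a12b signal was also present in the cortex libraries, which the liver comparisons do not use. The highest cortex count was 23 reads (0.588 CPM), in a TMEM106B-/- library. The 5 TMEM106B-/- cortex libraries held 23, 5, 3, 14 and 14 reads and the 5 combined libraries 12, 16, 18, 7 and 5 reads. The 5 WT libraries held 0, 3, 4, 5 and 4 reads and the 6 TDP-43Q331K libraries 4, 7, 0, 3, 1 and 4. Cyp4a12a had at most 2 reads and Cyp4a10 at most 1 in any of the 21 cortex libraries, and Cyp4a14, Cyp4a31 and Cyp4a32 had 0. The difference between cortex genotypes was not tested.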

How the results depend on the processing

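Of 858 alternative values for the 6 members over the 6 comparisons, 828 stayed the same, 16 lost the call, 14 gained it and 0 reversed. The 828 kept their direction and their side of the threshold or changed sign while called in neither fit (28). With near-identical copies summed, each sum was counted for every member in it, so the 858 values repeat these sums. The Cyp4a12b calls lost in that setting are values of the pair sum. In the combined genotype against WT, 2 members passed, against 4 with DESeq2, 4 in fits of the compared groups alone, 1 with no filter on low counts, 1 with the replicate block, 1 of 3 features with near-identical copies summed, 1 without the 3 high acute phase livers, and 1 to 3 when each library was left out. Against TDP-43Q331K, 2 passed, against 4 with DESeq2, 4 with limma-voom, 1 with copies summed, and 2 to 3 with a library left out. Against TMEM106B-/- 1 passed and 0 with copies summed. For the interaction 1 passed, against 2 with DESeq2, 2 with limma-voom and 0 with copies summed. With copies summed the features tested are fewer, and for the other changes the cause was not tested. The single genotypes against WT had 0 calls in every fit run. Over all genes the combined genotype against WT gave 1176 calls with edgeR and 1851 with DESeq2.

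Replicate numbers are shared by the genotypes. Over all genotype pairs, 4 of 24 same-numbered pairs of livers had a correlation over 0.1 (median -0.043, other pairs 0.019). Between WT and TDP-43Q331K the same-numbered pairs were all positive, at 0.23, 0.093, 0.278 and 0.098. Differently numbered pairs of these genotypes ran from -0.254 to 0.15. The main fit did not take the numbers as pairs, and the replicate block was run as an alternative. With the replicate block 1 member passed in the combined genotype against WT, Cyp4a12b, with Cyp4a14 at a log2 of 3.31 (edgeR adjusted p = 0.0714). The lowest member counts in a liver library were 58 reads for Cyp4a31 and 64 for Cyp4a14.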
